A study of Mus musculus with 2 samples.

Results

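MHC class I antigen presentation was described here through 10 genes, B2m, H2-K1, H2-D1, H2-T23, Tap1, Tap2, Tapbp, Psmb8, Psmb9 and Nlrc5. They were chosen by symbol from the 33696 features of a single-cell count matrix, by a rule that did not use their values, although earlier results of these data were known. All 10 were found. The cells were the mouse pancreatic ductal adenocarcinoma line KPCY 6419c5. In the analysed library, clones 76 and 84 had been pooled 1:1 at 19 days of editing. Both clones carried the BASELINE lineage tracer and had received Cas12a-ABE, an adenine base editor built on Cas12a, before single cells were sorted and grown into colonies. Each clone is thus the progeny of 1 sorted cell, and no unedited control was analysed here. The clone of each cell was not known here, so cells were assigned by marker genes that are not among the 10.

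A cells had at least 2 UMIs (unique molecular identifiers, each standing for 1 captured transcript) of Pde10a, Plcb1, Galnt18, Arhgap15 and Ceacam1 together, and at least 3 times as many as of the B markers. B cells met the converse rule for S100a7a, Rgs20, Hs6st2, Ccbe1, Ctse and Mal. A barcode was kept as a cell from 2000 UMIs and 1000 genes upward, if no more than 15% of its UMIs were mitochondrial. Of the 21361 cells kept, 7816 (36.6%) were A cells, 8936 (41.8%) were B cells and 4609 (21.6%) were neither. The median depth was 4699.5 UMIs in A cells and 5440.5 in B cells, and the median mitochondrial share was 3.19% and 1.89%. A cells and B cells are names for these marker rules, and no step tied them to clone 76 or clone 84. Keratins 8, 18 and 19 marked both as epithelial, at 919, 1083 and 618 CPM (UMIs per 1000000 UMIs of the group) in A cells and 1498, 3019 and 1584 CPM in B cells. The epithelial list summed to 2773 CPM in A cells and 7892 CPM in B cells, and 5 of its 6 genes of at least 50 CPM were over 2-fold higher in B cells, where 6.68% of all features of that level were. Epcam went the other way, at 31.8 CPM in A cells and 3.16 CPM in B cells, and Cldn7 had 44 UMIs in A cells and 0 in B cells. Immune markers, 10 genes, summed to 4.3 CPM in A cells and 1.08 CPM in B cells, led by Coro1a (78 and 14 UMIs), Cd68 (41 and 31) and Laptm5 (32 and 2). Of the markers that define immune cells, Ptprc had 4 and 2 UMIs and Tyrobp 0 in both. The 6 endothelial markers summed to 36.9 and 8.7 CPM, mostly Egfl7 (32.6 and 7.75 CPM); Tek had 138 and 8 UMIs, Pecam1 26 and 10, Cdh5 12 and 32, and Kdr and Emcn 0. The 7 fibroblast markers summed to 145 and 6.78 CPM, almost all of it Acta2 (144 and 5.89 CPM), with Col1a2, Dcn and Lum at 0 in both groups. The part of these marker differences in the members' values was not tested.

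Class I molecules show peptides from inside the cell to CD8 T cells. The proteasome cuts proteins, the transporter formed by Tap1 and Tap2 carries the fragments into the endoplasmic reticulum, and tapasin (Tapbp) helps load them onto a heavy chain paired with beta-2-microglobulin (B2m). Psmb8 and Psmb9 are catalytic subunits of the immunoproteasome, and Nlrc5 is the transactivator of class I genes; interferon-gamma is known to raise most of these genes. Tumour cells, including pancreatic cancer cells, are known for low class I on their surface.

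Promoter sequences are given first because H2-K1 and H2-D1, whose upstream windows were closely alike, had ratios of opposite sign between A and B cells, and because Tap1 and Psmb9 share a window. They are the 250 bases before the annotated start in RefSeq, build GRCm38.p6, and 8 of the 10 genes matched that table. H2-K1 had 2 annotated starts there; the window of the first is printed, and the other (chr17:34000334-34000583) holds 1 more CCAAT close to the start. Capitals mark 1 exact spelling of a kappa-B site (the capitals that begin with GGGG), TTTCNNTT (the core of interferon response elements), TTCNNNGAA (a STAT site), CCAAT and TGACG, each searched on both strands. The B2m window lies at chr2:122147437-122147686 on the + strand, H2-K1 at chr17:34000348-34000597 on the - strand, H2-D1 at chr17:35262844-35263093 on the + strand, H2-T23 at chr17:36032702-36032951 on the - strand and Tap1 at chr17:34187306-34187555 on the + strand.
B2m: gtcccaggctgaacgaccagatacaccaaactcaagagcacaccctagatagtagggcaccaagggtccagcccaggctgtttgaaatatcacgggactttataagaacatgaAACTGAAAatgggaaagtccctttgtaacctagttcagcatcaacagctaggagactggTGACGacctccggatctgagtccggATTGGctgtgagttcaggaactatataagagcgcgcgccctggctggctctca
H2-K1: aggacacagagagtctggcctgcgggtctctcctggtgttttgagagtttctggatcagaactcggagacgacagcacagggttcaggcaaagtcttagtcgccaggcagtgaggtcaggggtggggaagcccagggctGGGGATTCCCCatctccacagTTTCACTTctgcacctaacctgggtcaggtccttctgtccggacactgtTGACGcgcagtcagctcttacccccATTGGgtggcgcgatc
H2-D1: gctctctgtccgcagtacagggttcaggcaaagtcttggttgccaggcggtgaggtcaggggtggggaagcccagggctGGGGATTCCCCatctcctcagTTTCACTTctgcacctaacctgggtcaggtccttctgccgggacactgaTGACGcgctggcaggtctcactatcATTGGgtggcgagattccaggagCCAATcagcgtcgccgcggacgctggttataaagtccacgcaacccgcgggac
H2-T23: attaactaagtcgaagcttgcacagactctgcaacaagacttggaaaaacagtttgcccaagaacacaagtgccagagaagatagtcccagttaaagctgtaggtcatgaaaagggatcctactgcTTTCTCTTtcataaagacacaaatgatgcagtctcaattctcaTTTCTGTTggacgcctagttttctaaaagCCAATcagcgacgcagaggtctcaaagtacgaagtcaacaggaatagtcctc
Tap1: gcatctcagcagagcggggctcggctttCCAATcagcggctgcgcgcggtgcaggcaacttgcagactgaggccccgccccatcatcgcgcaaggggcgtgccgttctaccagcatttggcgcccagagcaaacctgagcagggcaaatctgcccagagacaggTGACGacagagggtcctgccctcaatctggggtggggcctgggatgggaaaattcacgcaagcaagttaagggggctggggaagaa

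The H2-K1 and H2-D1 windows were 89.5% identical over 190 aligned bases, against 49.8 to 59.5% for the other pairs among B2m, H2-K1, H2-D1, H2-T23 and Tapbp. Of the 8 genes, H2-K1 and H2-D1 held the exact kappa-B letters searched. So did 0.0222% of 27025 RefSeq promoters of the same length, or 6, with these genes among them. That share reflects how exact the searched string is, and it cannot be set against the shares of the shorter motifs. Other spellings of a kappa-B site were not searched, so a window without such capitals may still hold one. TTTCNNTT was in the windows of 4 genes (21.6% of all promoters), and the same letters with TC added at the end in B2m and H2-T23 (3.04%). CCAAT was in 7 of 8 (34.5%), TGACG in 5 of 8 (17.9%) and TTCNNNGAA in Psmb8 (7.18%). The Tap1 and Psmb9 windows overlapped by 225 bases on opposite strands, so most of the Tap1 sequence above, read from the other strand, is also the Psmb9 window. Their CCAAT and TGACG matches are the same bases, counted above for both genes. A match is a description of the letters and was not tested as a binding site.

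B2m, the light chain shared by all class I molecules, differed most among the abundant members. B2m (ENSMUSG00000060802, chromosome 2) had 164 CPM in A cells (95% interval 159.7 to 168), 56.3 CPM in B cells (54.3 to 58.3) and 118 CPM in cells of neither group (114 to 123). A cells were therefore 2.91-fold higher (2.78 to 3.04). Intervals here and below cover counting error in 1 library only: there was no replicate, no test was possible, and no p-value was computed. Each transcript is counted at its 3′ end, so levels of different genes can be set side by side without a length correction, although capture can differ between genes.

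The classical heavy chains, which carry the peptide groove, went in opposite directions. H2-K1 (ENSMUSG00000061232, chromosome 17) had 44.4 CPM in A cells (42.4 to 46.5) and 70.7 CPM in B cells (68.5 to 73), so B cells were 1.59-fold higher (1.51 to 1.69). H2-D1 (ENSMUSG00000073411, chromosome 17) had 158 CPM (154 to 162) and 123 CPM (120 to 126), so A cells were 1.29-fold higher (1.24 to 1.33). Summed, the 2 genes came to 203 CPM in A cells and 194 CPM in B cells, a ratio of 1.05 (1.02 to 1.08). The summed level was thus close to equal, while its makeup was not: H2-K1 gave 21.9% of the sum in A cells (21.0 to 22.8%) and 36.5% in B cells (35.6 to 37.4%). B2m UMIs per heavy-chain UMI were 0.807 in A cells and 0.291 in B cells, a ratio of 2.78 (2.66 to 2.9). Heavy chains are close copies of each other, and how reads shared between copies were counted can move the split between H2-K1 and H2-D1.

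H2-T23 encodes Qa-1, a non-classical heavy chain that presents leader peptides to receptors of natural killer cells. It (ENSMUSG00000067212, chromosome 17) had 4.2 CPM in A cells (3.59 to 4.88), 15 CPM in B cells (14 to 16.1) and 9.1 CPM in neither group, so B cells were 3.59-fold higher (3.03 to 4.26). H2-T23 and H2-K1 were the 2 members whose counting interval lay wholly on the side of B cells. Of the 18 other heavy chains and class I-like genes in a fixed list, 0 reached 50 CPM, and the list summed to 28.2 CPM in A cells and 27.2 CPM in B cells. Within it, named after their values were seen, H2-T22 was higher in B cells (12.2 and 20.7 CPM). H2-M3, which presents formylated peptides, was higher in A cells (7.05 and 1.35 CPM). So were H2-Q4 by 6.55-fold (3.16 to 15.2, 45 and 9 UMIs), Mr1 by 7.34-fold (2.8 to 24.3, 28 and 5 UMIs) and Fcgrt by 5.81-fold (3.67 to 9.58, 102 and 23 UMIs). Of 22293 features with any UMI in either group, 42.4% were past 2-fold in either direction.

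The peptide transporter was barely detected. Tap1 (ENSMUSG00000037321, chromosome 17) had 16 UMIs in 7816 A cells, or 0.397 CPM (0.227 to 0.645), and 0 UMIs in 8936 B cells. Set against 3 counts over all B cells, the 0.397 CPM of A cells was 6.99-fold higher, a value that leaves out the counting error in A cells. Tap2 (ENSMUSG00000024339, chromosome 17) had 105 UMIs (2.61 CPM, 2.13 to 3.16) in A cells and 14 UMIs (0.265 CPM, 0.145 to 0.445) in B cells, a ratio of 9.83 (5.6 to 18.6). Tapasin was the only loading member above 10 CPM: Tapbp (ENSMUSG00000024308, chromosome 17) had 23.3 CPM in A cells (21.8 to 24.8) and 14 CPM in B cells (13 to 15), a ratio of 1.67 (1.51 to 1.84). Its log2 ratio of 0.74 was 0.24 (-0.01 to 0.48) among cells with 2 to 3% mitochondrial UMIs, a range chosen after the data were seen because that share differed between the groups.

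The immunoproteasome subunits Psmb8 and Psmb9 were at the limit of detection in B cells. Psmb8 (ENSMUSG00000024338, chromosome 17) had 39 UMIs in A cells (0.968 CPM) and 3 in B cells (0.0568 CPM), a ratio of 17 with a counting interval from 5.42 to 86.2. Psmb9 (ENSMUSG00000096727, chromosome 17) had 21 UMIs (0.521 CPM) and 2 UMIs (0.0379 CPM), a ratio of 13.8 (3.36 to 121). For scale, the 5 A markers summed to 942 CPM in A cells and 8.7 CPM in B cells, where the marker rule itself holds them down. The level that free RNA adds to the members was not measured, because no cells that should lack class I were in the pool. Nlrc5 (ENSMUSG00000074151, chromosome 8) had 10 UMIs in A cells (0.248 CPM, 0.119 to 0.457) and 20 in B cells (0.379 CPM, 0.231 to 0.585); its log2 ratio of A over B, -0.61, had an interval from -1.87 to 0.55 and so no direction at this depth.

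**Figure D1:**
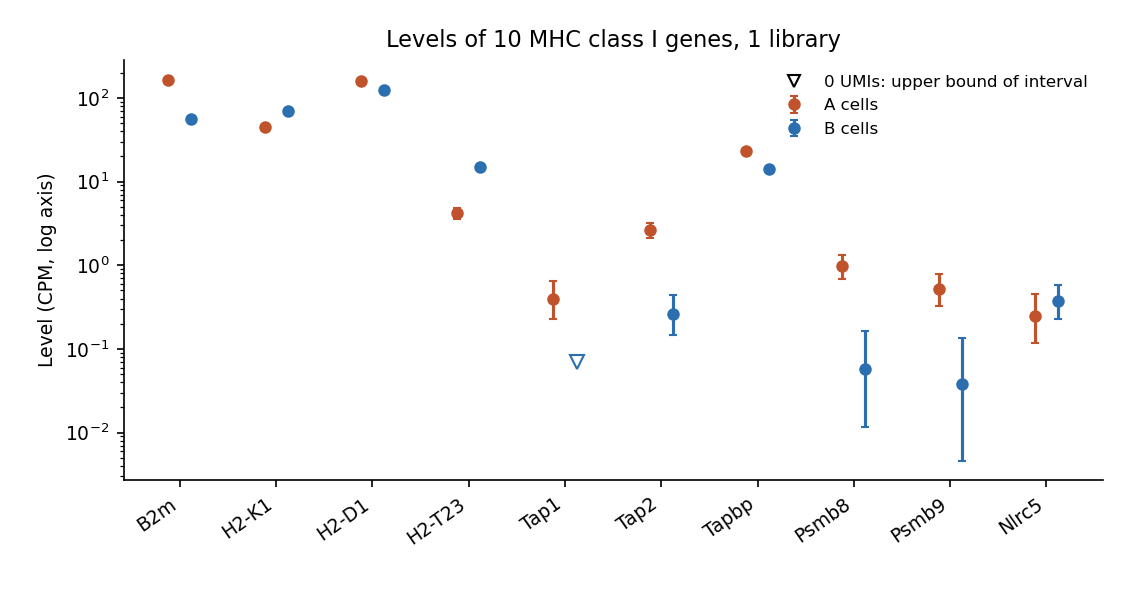
Level of each of the 10 genes in A cells (orange) and B cells (blue) in CPM on a log axis, with 95% Poisson intervals for counting error; an open triangle is the upper bound where 0 UMIs were seen. B2m, H2-D1 and H2-K1 lie between 44.4 and 164 CPM, while Tap1, Psmb8, Psmb9 and Nlrc5 lie under 1 CPM in both groups.

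In order of level, A cells had B2m and H2-D1 at the top with overlapping intervals (159.7 to 168 and 154 to 162), then H2-K1, Tapbp, H2-T23, Tap2, Psmb8, Psmb9, Tap1 and Nlrc5. The intervals of Psmb8 and Psmb9, of Psmb9 and Tap1, and of Tap1 and Nlrc5 overlapped. In B cells the order was H2-D1, H2-K1, B2m, H2-T23, Tapbp, Nlrc5, Tap2, Psmb8, Psmb9 and Tap1. There the intervals of H2-T23 and Tapbp overlapped, and from Nlrc5 on each gene's interval overlapped that of the next. Summed over the 10 genes, A cells had 399 CPM (392 to 405) and B cells 279.8 CPM (275 to 284).

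Counted by interval, 7 of the 10 members were higher in A cells, Tap1 included, and 2 in B cells. Among cells with 2 to 3% mitochondrial UMIs the counts were 5 and 2, because the intervals of Tapbp (0.24, -0.01 to 0.48) and Psmb9 (3.02, -0.02 to 8.54) reached 0 on the log2 scale. Of 22293 features with any UMI in either group, 34.1% were higher in A cells and 20.5% in B cells by the same rule; the share rises with depth, to 55.7% and 32.3% of the 8800 features of at least 10 CPM. By the rule of size fixed for naming genes, over 2-fold and at least 50 CPM in either group, 1 of 3 members passed, B2m, in A cells, where 7.6% of 3908 features did. With a minimum of 10 CPM, 5 members qualified: B2m was over 2-fold higher in A cells (10.3% of 8800 features) and H2-T23 in B cells (7.26%). The 3908 features had a median log2 ratio of 0.11, with a 5th percentile of -1.25 and a 95th of 1.25, so the 1.54 of B2m lay outside that range and the values of H2-K1 (-0.67) and H2-D1 (0.36) inside it.

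**Figure D2:**
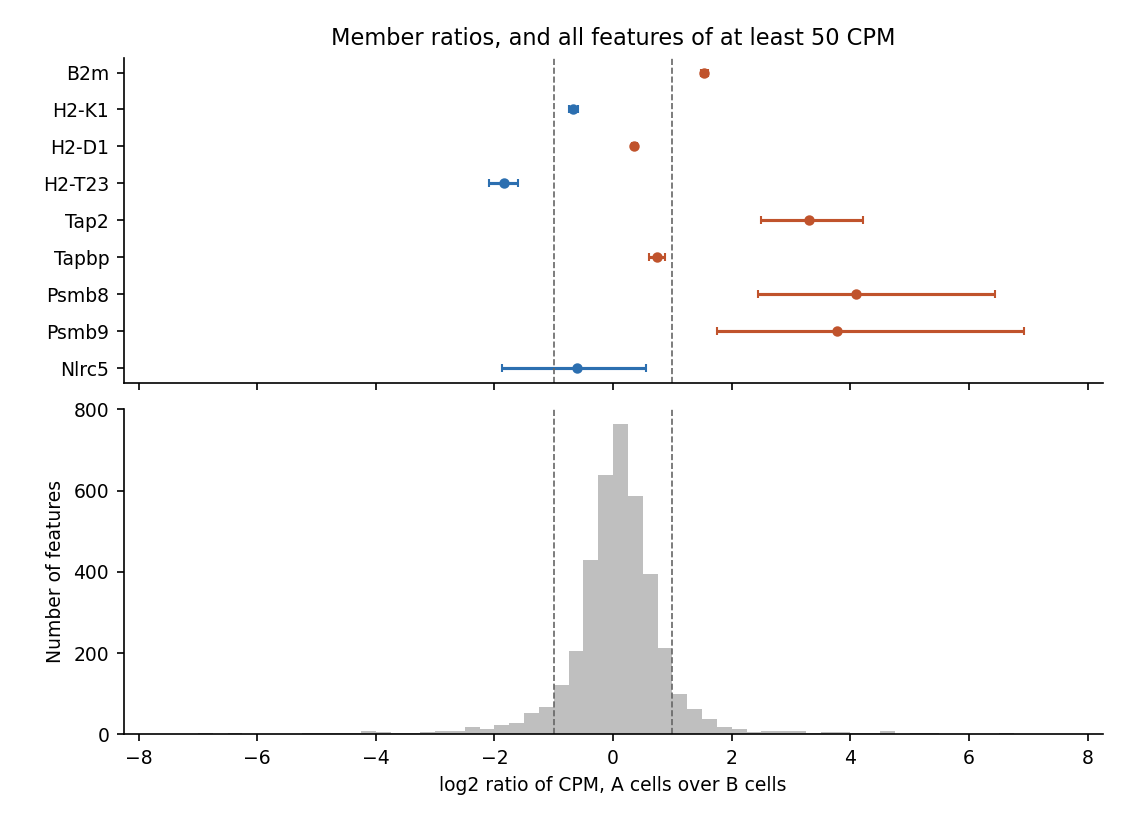
Upper panel, log2 ratio of A over B cells for the 9 members with UMIs in both groups, with exact conditional intervals for counting error; lower panel, the number of features at each ratio among 3908 of at least 50 CPM, with dashed lines at 2-fold. B2m (1.54) and H2-T23 (-1.84) lie outside the lines on opposite sides, H2-K1 (-0.67), H2-D1 (0.36) and Tapbp (0.74) between them.

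Most members sit together in the MHC region, so their neighbours give a local background. By gene order in GENCODE M21, 157 features lie from Tapbp to H2-T23 on chromosome 17, and 21 of those that are not members had at least 50 CPM. Their median log2 ratio of A over B was 0.25, beside 0.33 for 208 features of the chromosome. Neu1, a lysosomal sialidase, was over 2-fold higher in A cells (1.55), and Ier3, an early-response gene, in B cells (-1.57); the other 19 lay within 2-fold. The intervals of H2-T23, Psmb8, Psmb9 and Tap2 lay outside the range of these 21 neighbours, but all 4 genes were below 50 CPM, where ratios of all features spread more widely. Chromosome 2, which holds B2m, had a median of 0.51 over 287 features, below the 1.54 of B2m.

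**Figure D3:**
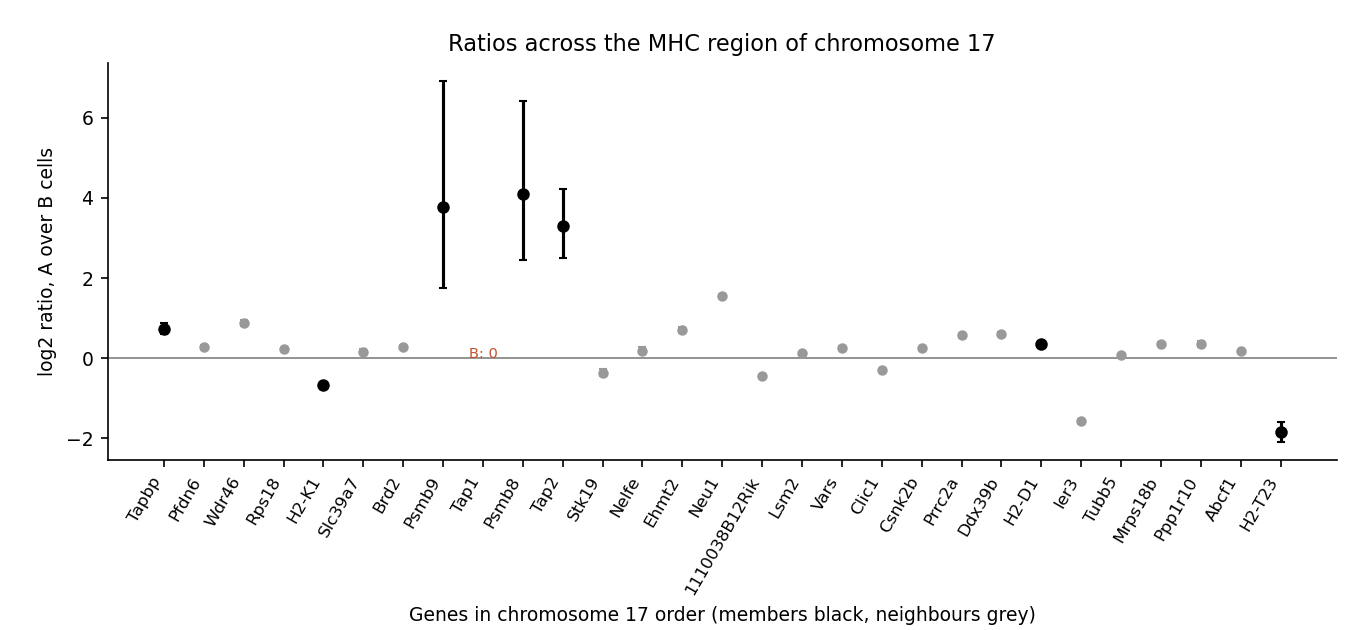
Log2 ratio of A over B cells for the 8 members on chromosome 17 (black) and 21 neighbours of at least 50 CPM (grey), in chromosome order from Tapbp to H2-T23, with intervals for counting error; Tap1 had 0 UMIs in B cells. The neighbours run from -1.57 to 1.55 and Tap2, Psmb8 and Psmb9 lie above all of them.

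Other genes of the pathway were taken from fixed lists and read against the 14.3% of 3908 features that were past 2-fold in either direction, a share at which lists this short can hold 0. Of the peptide-loading and trimming genes, 6 had at least 50 CPM and 0 were over 2-fold apart (median log2 0.04). Among them Calr, a chaperone of heavy chains, had 606 and 664 CPM in A and B cells, and Pdia3, the disulfide isomerase of the loading complex, 684 and 584 CPM. The proteasome list had 7 such genes and 0 past 2-fold (median 0.2). The constitutive catalytic subunits Psmb5, Psmb6 and Psmb7 had 287, 332 and 260.1 CPM in A cells and 278, 269 and 241 CPM in B cells, against under 1 CPM for Psmb8 and Psmb9. Psmb10, the remaining immunoproteasome catalytic subunit, stood apart from those 2, at 80.4 CPM (A) and 56.8 CPM (B).

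In the list of class I transcription regulators, 5 of 18 genes had at least 50 CPM and 0 passed 2-fold (median 0.32). Below that level, and named after their values were seen, Irf9 (5.54 and 1.97 CPM), Rfx5 (2.93 and 1.14 CPM), Rfxank (5.61 and 2.56 CPM) and Nfya (31.2 and 15.2 CPM) were over 2-fold higher in A cells. No gene of the list was over 2-fold higher in B cells. Of all features, 10.3% of those of at least 10 CPM were over 2-fold higher in A cells. With any UMI in either group, 42.4% were past 2-fold in either direction. Among the 5 genes of at least 50 CPM the largest ratios were those of Eed, a subunit of the Polycomb repressor complex, at 80.2 and 43.9 CPM, and Irf2, an interferon regulatory factor, at 85.8 and 53.3 CPM. The interferon receptor and kinase list had 4 such genes and 0 past 2-fold (median 0.48), with the receptor chain Ifngr2 at 156 and 89.4 CPM and Ifngr1 at 67.1 and 83.7 CPM. Below that level, and named after their values were seen, Jak2 (13.2 and 29.9 CPM) and the signalling inhibitors Socs1 (6.83 and 25.1 CPM) and Socs3 (2.28 and 17.1 CPM) were over 2-fold higher in B cells. Interferon genes themselves summed to 11 UMIs in A cells and 1 in B cells. Of 29 interferon-stimulated genes, 2 had at least 50 CPM (median 2.76): Ifitm3, a membrane protein that blocks virus entry, had 72 and 2.71 CPM, and Bst2, which tethers budding virus, 97.3 and 56.5 CPM. The list summed to 316 CPM in A cells and 150.5 CPM in B cells. Class II genes summed to 15.6 and 5.8 CPM, led by H2-DMa at 15.1 and 5.57 CPM.

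The share of cells with a UMI ranged widely among the members. After each cell was thinned to 3000 UMIs, which left 7406 A cells and 8827 B cells and dropped 410 and 109, B2m had a UMI in 37.3% of A cells (36.2 to 38.4%) and 14.5% of B cells (13.8 to 15.3%). H2-D1 was seen in 37.2% and 29.9%, H2-K1 in 12% and 18%, H2-T23 in 1.04% and 4.41%, and Tapbp in 6.97% and 3.75%. Tap2 was seen in 0.824% and 0.0793%, Psmb8 in 0.243% and 0.0113%, Psmb9 in 0.162% and 0.0113%, and Nlrc5 in 0.0675% and 0.0906%. Tap1 was seen in 0.0945% of A cells and in 0 of 8827 B cells, which allows a share of up to 0.034% by 3 counts, and of 0.0418% by the Clopper-Pearson bound. At least 1 member was seen in 67.9% of A cells and 54.4% of B cells; without thinning the shares were 82.3% and 75.4%, and for B2m 53.2% and 26.5%. These are shares of cells with a captured UMI, not of cells that express the gene.

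Counts of the abundant members varied between cells little more than Poisson counts, whose Fano factor (variance over mean) is 1. The Fano factor was 1.11 for B2m, 1.03 for H2-K1 and 1.05 for H2-D1 in A cells and 1.05, 1.03 and 1.03 in B cells, beside a median of 1.03 over all features of at least 50 CPM in each group. The most B2m UMIs in a thinned cell was 7 in A cells and 3 in B cells. B2m in A cells stood at the 83.7th percentile of features. The means of these genes were 0.129 to 0.488 UMIs per thinned cell. At such low means the Fano factor stays near 1 even if true levels vary, so the values do not show that levels are even between cells.

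Members were hardly correlated from cell to cell. Over 7406 thinned A cells the median Pearson correlation of 45 member pairs was 0.008, from -0.011 to 0.055, and over 8827 B cells the median of 36 pairs was -0.001, from -0.014 to 0.052. Over all pairs of features of at least 50 CPM the median was 0.0, with 5th and 95th percentiles of -0.025 and 0.025 in A cells and of -0.021 and 0.022 in B cells. Only 1 of the 45 pairs in A cells and 3 of the 36 in B cells had both genes at that level, so the ranges are not of like genes. B2m and H2-D1 were seen together in 1039 A cells, where independence gives 1029, and in 416 B cells, where it gives 384. B2m and H2-K1 were seen together in 372 A cells against 331 (r of 0.043, where the 99th percentile of feature pairs was 0.042). With a mean of at most 0.488 UMIs per gene and thinned cell, a weak correlation is no finding in either direction.

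The features most like each member, by the same correlation, were also weakly tied to it. In A cells the feature first in line was S100g, a calcium-binding protein, for Tapbp (0.097) and H2-D1 (0.08), and Gm5886 for B2m (0.094). Malat1 and Nupr1 followed for Tapbp (0.089 each). In B cells Nupr1, a stress-response gene, came first for H2-D1 (0.05), followed by Sprr1a (0.049), a squamous gene. The value of Psmb8 with Nupr1 in B cells (0.057) rests on 1 thinned cell with a Psmb8 UMI. All values were below 0.1 over 7406 or 8827 cells of 1 library.

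Levels differed between subsets of each group. A cells with more UMIs of Tnc, Acta2 and Ptchd4 (2478 contractile-type cells) were compared with those with more of S100g, Epcam and Tm4sf20 (1142 cells). Tapbp had 19.8 CPM in the former and 42.9 CPM in the latter, a log2 ratio of -1.12 (-1.37 to -0.86), and H2-T23 had 2.85 and 8.04 CPM (-1.5, -2.15 to -0.85). B2m differed less, at 161 and 186 CPM (-0.2, -0.31 to -0.1). All 4 members of at least 10 CPM in A cells were lower in the contractile-type cells, where 51.5% of 8308 features were, with a median of -0.27 beside -0.01. The median depth was 5156 UMIs in these cells and 4507 in the S100g cells, and the median mitochondrial share was 3.1% and 3.55%; their part in these values was not tested.

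In B cells, those with more Areg, Btc and Cftr UMIs (4714 cells) were set against those with more Krt14 and Sprr1a (541 squamous-type cells). Tapbp had 12.2 and 25.8 CPM, a log2 ratio of -1.08 (-1.42 to -0.73), and B2m 52.1 and 72.5 CPM (-0.47, -0.67 to -0.28). All 5 members of at least 10 CPM were lower in the Areg cells, where 48.4% of 7911 features were, with a median of -0.51 beside 0.01. The Areg cells had a median of 5530.5 UMIs and 1.86% mitochondrial UMIs, against 6097 UMIs and 1.98% in the squamous-type cells, and the part of these was not tested. In both groups Tapbp thus differed over 2-fold between the states, and in both the state with the lower level was the larger one.

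Cells lowest in cell-cycle genes had the highest levels of several members. In A cells, the tenth with the least S-phase and mitosis transcripts (781 cells) had 233 CPM of B2m, 48.2 CPM of Tapbp and 18.2 CPM of H2-T23. The tenth highest in S-phase genes had 162, 20.2 and 2.56 CPM, log2 ratios of -0.52 (-0.68 to -0.36), -1.26 (-1.69 to -0.84) and -2.83 (-4.03 to -1.81). The last of these rests on 9 and 57 UMIs. All 4 members of at least 10 CPM were lower in S-phase cells (54.6% of features) and all 4 in the tenth highest in mitosis genes (56.9%), with medians of -0.55 and -0.64 beside -0.06 and -0.08. The cells lowest in cycle genes also had a median of 3628 UMIs and 3.84% mitochondrial UMIs, against 4186 UMIs and 3.16% in the S-phase cells and 5328 UMIs and 3.22% in the mitosis cells, and the part of depth or RNA quality in these values was not tested. In B cells the same contrasts gave medians of -0.31 and -0.48 over 5 members (0.01 and -0.03 over all features, of which 48.4% and 53.5% were lower), with negative ratios for all 5 in each. In the S-phase contrast the intervals of B2m (-0.18, -0.43 to 0.06) and H2-T23 (-0.31, -0.75 to 0.13) included 0. The B cells lowest in cycle genes had a median of 4747 UMIs and 1.97% mitochondrial UMIs, the S-phase cells 4904 UMIs and 1.89%, and the mitosis cells 6459 UMIs and 1.86%.

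Members were also compared between classes of depth and of mitochondrial share, which were not separated from each other or from cycle and state. The A cells of lowest and highest mitochondrial share had a median of 4779 and 4449 UMIs. Each group was split into 3 equal classes of depth. From the shallowest to the deepest class of A cells, Tapbp went from 29.1 to 20.7 CPM and B2m from 175 to 159 CPM, and 3 of 4 members had negative ratios, near the 63.1% of all features; that of H2-K1 (-0.12, -0.29 to 0.05) had an interval that included 0. In B cells B2m went from 49.2 to 62.4 CPM, and 0 of 5 members had negative ratios (57.2% of features), with intervals that included 0 for H2-T23 (0.17, -0.1 to 0.44) and Tapbp (0.22, -0.05 to 0.49). Between the classes of lowest and highest mitochondrial share, B2m went from 148 to 189 CPM and Tapbp from 18.5 to 32 CPM in A cells, with 0 of 4 members lower in the highest class (43.5% of features). In B cells the values were 52.5 and 60.3 CPM for B2m and 12.3 and 16.4 CPM for Tapbp, with 0 of 5 members lower (48.1%) and an interval that included 0 for H2-D1 (0.06, -0.03 to 0.14). Over the 11 subsets of each group, B2m ran from 148 to 233 CPM in A cells and from 49.2 to 72.5 CPM in B cells, without overlap. The ranges of H2-K1 (37.3 to 64.5 and 60.7 to 93.3 CPM), H2-D1 (148 to 210.4 and 113 to 166 CPM), H2-T23 (2.56 to 18.2 and 11.8 to 21.1 CPM) and Tapbp (18.5 to 48.2 and 10.9 to 25.8 CPM) did overlap between groups.

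**Figure D4:**
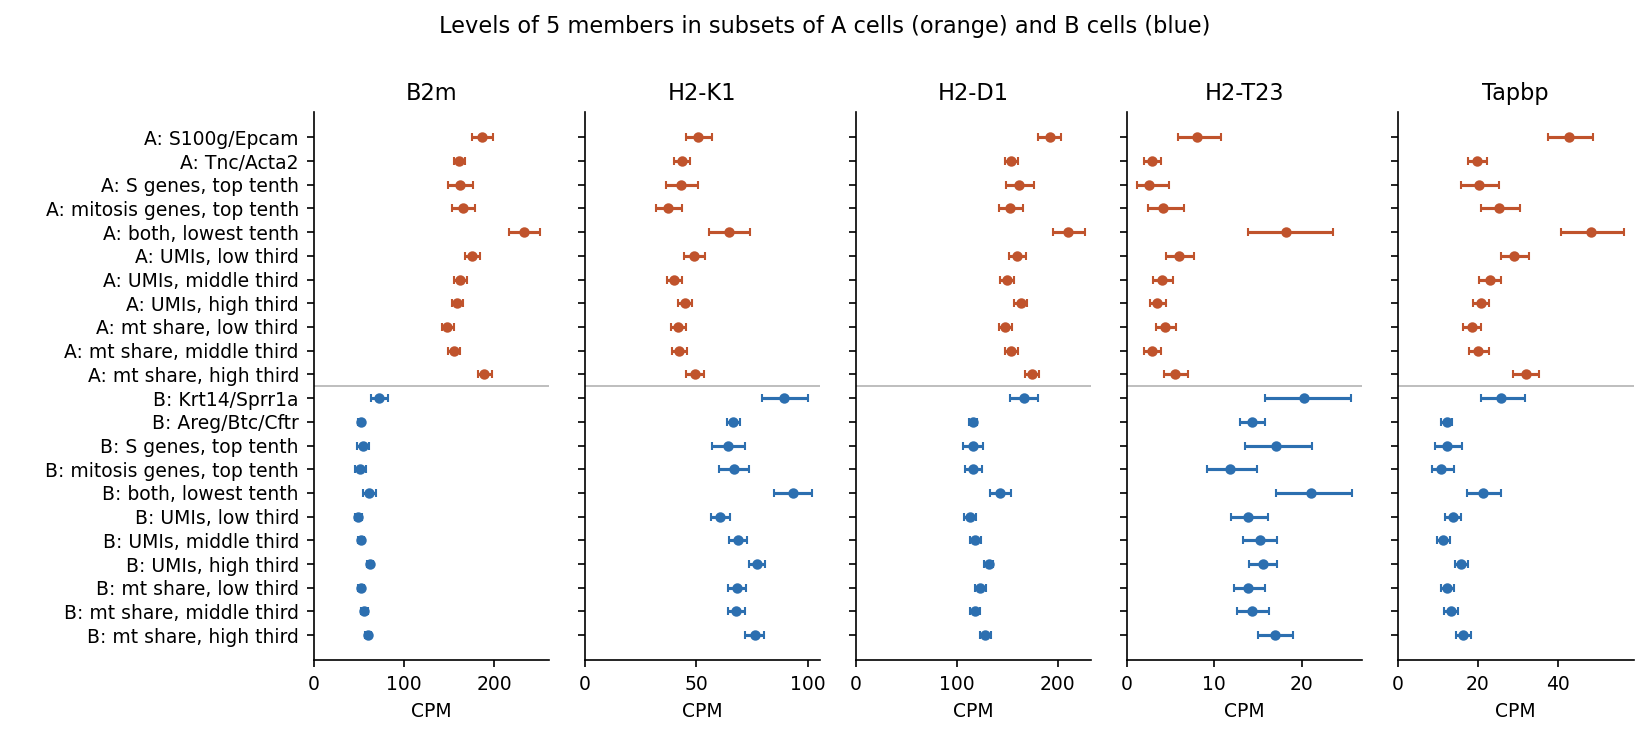
Level in CPM of 5 members in 11 overlapping subsets of A cells (orange) and of B cells (blue), with 95% Poisson intervals for counting error. B2m is higher in each A subset (148 to 233 CPM) than in each B subset (49.2 to 72.5 CPM), and the A cells lowest in cycle genes are highest for all 5 genes among A subsets.

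Members were also read by the number of UMIs of 29 interferon-stimulated genes, none of them a member, in thinned cells. In A cells with 0, 1, 2 and 3 or more such UMIs, B2m had 143, 164, 180.4 and 222 CPM, with overlapping intervals for 1 and 2 (155 to 173 and 166 to 196). H2-K1 had 42.9, 40.2, 43.1 and 55.2 CPM, H2-D1 156, 154, 165 and 180 CPM, and H2-T23 2.74, 3.74, 3.06 and 8.18 CPM, so for these the last class stood highest without steady steps before it. From 0 to 3 or more, the log2 ratio was 0.63 (0.47 to 0.79) for B2m, 0.36 (0.04 to 0.67) for H2-K1, 0.21 (0.04 to 0.38) for H2-D1, 0.89 (0.48 to 1.29) for Tapbp and 1.58 (0.58 to 2.53) for H2-T23. Tap2 went from 2.32 to 6.65 CPM (22 and 13 UMIs) and Psmb8 from 0.421 to 3.07 CPM (4 and 6 UMIs). The median of the 4 members of at least 10 CPM was 0.5, beside 0.02 over 8298 features. Against the 5th and 95th percentiles of those features, -0.37 and 0.46, B2m and Tapbp lay outside and H2-K1 and H2-D1 inside. The classes held 3167, 2497, 1090 and 652 A cells.

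In B cells the contrast of 3 or more against 0 had an interval that included 0 for B2m, H2-K1, H2-D1, H2-T23 and Tapbp. The 126 B cells with 3 or more such UMIs had 0 UMIs of Tap2 and of Psmb8, so these gave no ratio. B2m had 50.7 CPM (47.4 to 54.2) in the class with 0, 59.1 (53.7 to 64.8) with 1, 59 (47.7 to 72.1) with 2 and 55.6 (34.4 to 84.9) with 3 or more. The step from 0 to 1 went the same way as in A cells, and the log2 ratio of the last class over the first was 0.13, with an interval from -0.57 to 0.75. The intervals of H2-K1 (0.18, -0.4 to 0.71), H2-D1 (0.17, -0.26 to 0.58), H2-T23 (-0.98, -3.27 to 0.58) and Tapbp (0.51, -0.83 to 1.57) also included 0. The interval of B2m in B cells includes the 0.63 seen in A cells, so a difference between the groups in this slope is not shown.

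**Figure D5:**
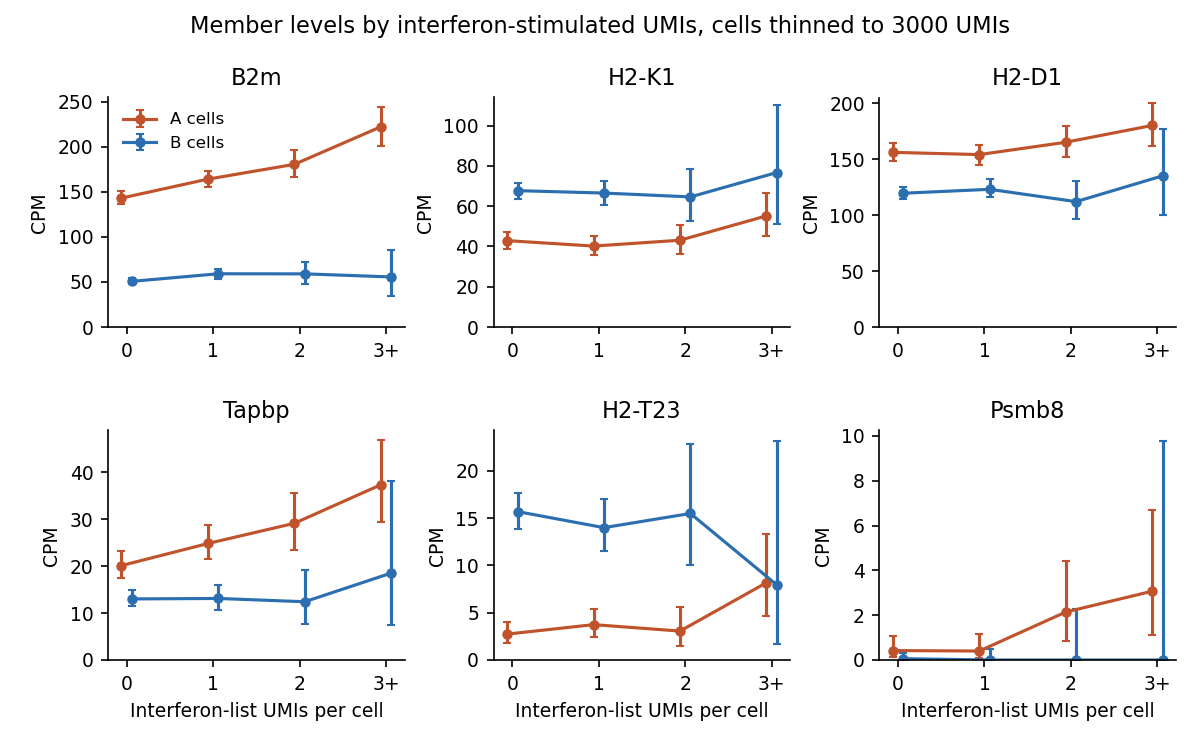
Level in CPM of 6 members against the number of interferon-stimulated UMIs per cell, for A cells (orange) and B cells (blue) thinned to 3000 UMIs, with 95% Poisson intervals for counting error. In A cells B2m runs from 143 to 222 CPM and Tapbp from 20.1 to 37.3 CPM, while the intervals of B cells with 3 or more such UMIs (126 cells) are wide.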

How the data were processed

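Transcripts of single cells were counted in 1 droplet library of pooled clones 76 and 84 (3′ v4 chemistry, per the labels' protocols). The deposited matrix holds whole-number UMI counts per gene and barcode, not normalized; it was made with Cell Ranger 8.0.1, per the file headers, and the submitters' processing notes name the build GRCm39. Counting of shared reads and filters before deposit are not given in the sources used here. The second sample, a pool of 5 clones that also holds clone 76, was not analysed here.

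There were 116505698 UMIs over 22178 barcodes, and a barcode had between 500 and 23576. CPM were computed from summed UMIs of each group, with exact Poisson intervals. Shares have Clopper-Pearson intervals, and log2 ratios an exact conditional binomial interval, all at 95% and for counting error only. With 1 library, cells are not replicates and no test was made. Thinning drew 3000 UMIs per cell without replacement, and correlations used log1p counts. State subsets needed at least 2 UMIs of one marker set and 3 times those of the other. Doublets were kept; removing 778 barcodes (3.64%) marked by Scrublet in scanpy 1.11.5 was an alternative, and 569 cells had 2 or more UMIs of both marker sets. Steps were tested on simulated data. Python 3.11.15, numpy 2.4.6 and scipy 1.17.1 were used.

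All 10 members are named. Of each gene list, genes of at least 50 CPM in either group could be named, and of interferon, class II and cell type lists also the most abundant; defining markers of cell types that are at or near 0 are named as a check of the label, and others are said to be chosen later. Epcam, Cldn7, Cd68, Laptm5, Tek, Pecam1, Cdh5 and the near-zero markers were picked after their values were seen. The members and lists were chosen with earlier results of these data known. Gene order and chromosomes come from GENCODE M21 (31961 of 33696 features matched by identifier), and promoter sequences from RefSeq on GRCm38.p6. No coordinate was moved between builds.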

Additional observations from a re-analysis of the deposited data

Results flagged for a closer look

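The 817 barcodes that failed the cell filter were left out of the main comparison (the loose cell filter let some of them in), and they held 251 UMIs of the 10 members. This is 267 CPM (235 to 302) of their 940040 UMIs, where 3 counts would be 3.19 CPM. The interval includes the 279.8 CPM of B cells and lies below the 399 CPM of A cells. Their B2m level was 78.7 CPM (61.8 to 98.8), between those of A and B cells. Their median mitochondrial share was 11.1%, and 53.7% had a UMI of an A marker against 20.1% with one of a B marker.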

How the results depend on the processing

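Loose and strict cell filters, a stricter marker rule, Scrublet removal, thinning, centring, leaving mitochondrial and ribosomal-protein UMIs out of the total, a depth range of 4000 to 6000 UMIs and a mitochondrial range of 2 to 3% (the last 2 chosen after seeing the data) gave 79 member ratios: 65 moved by less than their counting interval, 14 by more, and 0 changed sign. In the mitochondrial range 5 members, not 7, were higher in A cells by interval, since those of Tapbp and Psmb9 (3.02, -0.02 to 8.54) reached 0; B2m was 1.3, H2-K1 -0.88, H2-D1 0.21, Tapbp 0.24 and Nlrc5 -2.37 there, and the cause was not tested. Tapbp was 0.53 under the strict filter. Centring subtracts the median of all features, 0.11. Psmb8 gave no ratio in either range and Tap1 in no setting, for lack of UMIs in B cells. A minimum of 10 CPM gave 2 of 5 members and 1547 of 8800 features (17.6%) past 2-fold, and no minimum 6 of 10 and 9462 of 22293 (42.4%), because more low features enter. The share of cells with any member, 67.9% in A cells and 54.4% in B cells, was 82.3% and 75.4% without thinning and 87.6% and 82% at 6000 UMIs, as deeper cells hold more UMIs. The median Fano factor of B2m, H2-K1 and H2-D1 in B cells was 1.12 at 6000 UMIs against 1.03. With a stricter state rule the log2 ratio of summed members went from -0.33 to -0.41 between A states and from -0.52 to -0.7 between B states. Without Bst2 in the interferon-stimulated list, the ratio of summed members between 3 or more and 0 such UMIs was 0.64 against 0.48 in A cells, and -0.14 (-0.71 to 0.38) against 0.14 (-0.15 to 0.41) in B cells, where both intervals include 0. Median correlations stayed between -0.003 and 0.012. No paired analysis was possible because there was 1 library. Depth limits Tap1, Psmb8, Psmb9 and Nlrc5 most, with 0 to 39 UMIs per group.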

Other observations

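The 5 lowest members, Tap1, Tap2, Psmb8, Psmb9 and Nlrc5, were also counted together. Of 7816 A cells, 180 had a UMI of at least 1 of them, 4 had UMIs of 2 or more different ones and 0 of 3 or more; in B cells 39 had 1 and 0 had 2. The median depth of the 180 cells was 5099.5 UMIs, above the 4699.5 of all A cells.

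Values of some other genes, chosen after they were seen, are given without a theme, beside 17.6% of the 8800 features of at least 10 CPM that were past 2-fold in either direction. Of the ligands of natural killer and T cell receptors, Ulbp1 had 16.4 CPM in A cells and 41.8 CPM in B cells, Nectin2 11.6 and 4.98 CPM, Raet1e 14.9 and 18.1 CPM, and Pvr 18.3 and 16.8 CPM.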
